A study of Homo sapiens with 16 samples.

Results

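The constitutive CTCF sites inside genes are stretches of the genome at which a CTCF peak was called in each of 4 CTCF chromatin immunoprecipitation (ChIP-seq) libraries, within the body of a protein-coding gene and away from promoters. Overlapping peaks of the 4 lists (1 bp or more) were joined, which gave 29064 sites. Of these, 8006 had a peak in all 4 lists. 1440 of the 8006 overlapped a promoter, here the interval from 1000 bp upstream to 500 bp downstream of a start site of a protein-coding gene. Another 3643 lay outside genes and are called constitutive intergenic sites below. The remaining 2923 overlapped a gene body and are the sites described here. A further 8545 genic sites away from promoters had a peak in 1 to 3 of the lists. Because the sites were chosen by the peak calls of these libraries, their presence in all 4 lists is a selection and not a finding, and a site with a strong difference between libraries could drop out of the set.

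The libraries came from 2 kinds of cells. MCF10A is an immortalized, non-transformed human mammary epithelial line, labelled parental. G12V cells are MCF10A cells transduced with a lentivirus for HRas with the G12V change, an oncogenic form of a small GTPase that drives the MAPK pathway, together with a GFP vector, and selected with hygromycin. Whether the G12V line is a clone or a pool is not given in the sources used here, and the parental cells are not said to carry an empty vector. Both lines were grown with EGF, insulin, hydrocortisone and cholera toxin. Each line had 2 CTCF libraries, called replicates 1 and 2, and 2 p53 libraries made after treatment with Nutlin, a drug that stabilises p53. A treatment of the cells used for CTCF is not given. The lists hold no expression values, so neither the cell type nor the HRas transgene was checked against marker genes. The MCF10A lists held 11346 and 20136 CTCF peaks and the G12V lists 12004 and 27678, called at depths of 12.1, 10.9, 13.5 and 10.7 M reads in the same order. These are depths on the scale used in peak calling, recovered from the lists. The paper lists more aligned reads for each of these libraries, by the widest margin for MCF10A replicate 1.

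CTCF is a multi-zinc-finger protein that binds a long motif with a direction. Cohesin, the ring complex that extrudes chromatin loops, tends to stop at CTCF, and loop anchors often carry motifs that face each other. Within gene bodies CTCF has been linked to pausing of RNA polymerase and to exon choice, and methylation of CpG in the motif can prevent binding at some sites. Many CTCF sites are occupied in most cell types.

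The motif behind these peaks is seen best in the sequences themselves. The following 30-base stretches of GRCh37 (the Genome Reference Consortium name of hg19), read 5′ to 3′ along the strand of the motif, are the sites with the strongest peaks over the 4 lists, the strongest exonic sites, and sites that also had a p53 peak. Capitals mark the best match to the 12-base CTCF core, allowing 1 mismatch, and the 9 bases on either side are in lower case.
MMRN2, intron 6, minus strand, chr10:88699340-88699369: ggcctagcaCCGGTAGAGGGCgctgcgggc
ARHGAP10, intron 7, minus strand, chr4:148788088-148788117: aagagttgaCCAGCAGGTGGCagcataccc
DOCK2, intron 46, minus strand, chr5:169497981-169498010: agaaggcggCCACTAGGGGGCggtgtctga
NDUFA4L2, intron, minus strand, chr12:57632996-57633025: gccgctcggCCTCCAGGGGGCgcccgagcc
GPSM1, intron 7, plus strand, chr9:139233825-139233854: gcttgccggCCGCCAGGGGGCgagcgaggc
ANK2, coding exon 17, plus strand, chr4:114199648-114199677: ttatgacaaCCAGAAGGTGGCgctgctgtt
LCT, intron 13, minus strand, chr2:136555225-136555254: atcacttggCCAGCAGGTGGCgatggtctg
INTS7, coding exon 19, minus strand, chr1:212118235-212118264: ccagaataaCCAGCAGCTGGCgctaaaggt
SLC30A1, intron 1, plus strand, chr1:211751229-211751258: cccgctcggGCAGCAGGGGGCgtgcgggcc
IP6K3, intron 1, plus strand, chr6:33712333-33712362: ggtttttccCCACCAGAGGGCagcagcaca

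A second set shows the sites whose fold enrichment differed most between the cell types relative to its error, all of them short of the test's threshold. Strand, capitals and build are as before.
SLC35F2, intron, plus strand, chr11:107787471-107787500: agagcccagCCGCTAGGTGGCgcaactcca
PLEKHA7, intron 10, plus strand, chr11:16841996-16842025: gtcggcctgCCACTAGGTGGCagggtttgc
ARID4B, intron 5, plus strand, chr1:235416666-235416695: ggcctctacCCACTAGATGTCagtagcacc
HS1BP3, intron 2, minus strand, chr2:20842322-20842351: gcagtcgggCCAGCAGGGGGCgcccggccc
RAB11A, intron, minus strand, chr15:66149357-66149386: actctcccaCCACCAGGGGGAgctagcctt
PTPRC, coding exon 5, minus strand, chr1:198668736-198668765: gtgtcagttCCAGCAGAGGGCgtctgcgag
AFF3, intron 21, plus strand, chr2:100175710-100175739: cttcttccaCCACGAGAGGGCgctgtctct

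The question for the whole set was how strongly CTCF was bound at these sites and how far the libraries gave the same picture. The fold enrichment of a peak, the ratio of the summit pileup to the local background with 1 added to each, had a median over the 2923 sites of 7.38 in MCF10A replicate 1 and 10.95 in MCF10A replicate 2. In G12V the medians were 7.46 in replicate 1 and 14.7 in replicate 2. In both cell types replicate 2 had the higher median, and these libraries also had the longer lists. The summit pileup is the number of fragments that cover the summit, scaled to the calling depth of the list, and is no raw count. It had medians of 19.4, 33.3, 20.9 and 45 in the same order, and the local background medians of 1.81, 2.00, 2.00 and 2.00. Within its own list, the median site stood at the 54.5th, 67.9th, 56.5th and 76.9th percentile of fold enrichment.

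Constitutive intergenic sites had nearly the same strength. Their median fold enrichment was 7.43, 11.3, 7.44 and 14.7 in the same order of libraries. The median log2 fold enrichment of the genic sites minus that of the intergenic sites was -0.012 ± 0.020 (SD, n = 4 libraries), a difference within the spread between libraries (exact two-sided sign-flip permutation test, p = 0.5, where 4 libraries allow no p below 0.12).

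**Figure D1:**
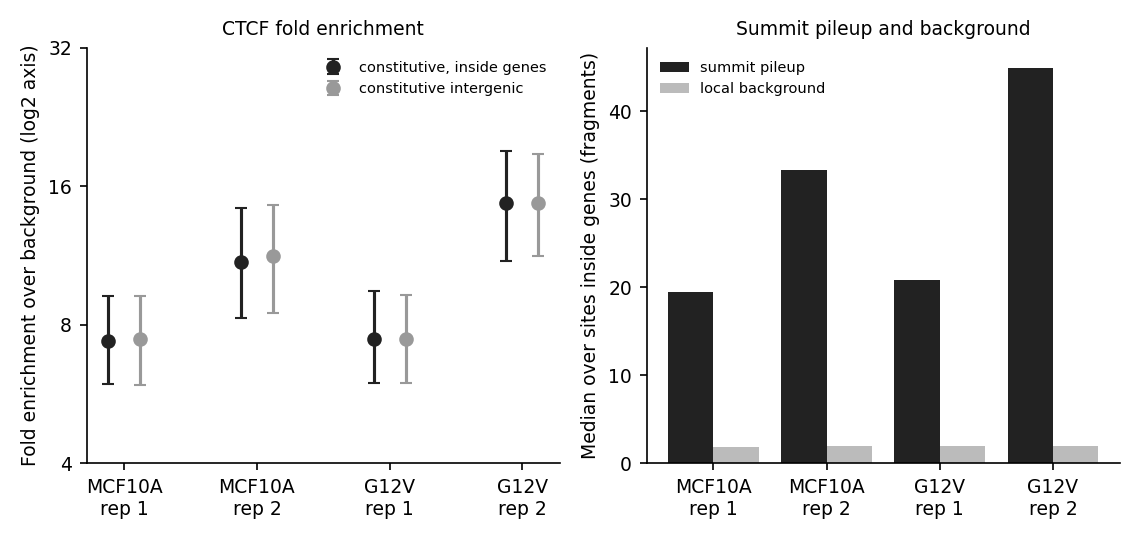
CTCF enrichment in the 4 CTCF libraries. The left panel gives the median fold enrichment (log2 axis, bars from the lower to the upper quartile) of the constitutive sites inside genes and of the constitutive intergenic sites, and the right panel the median summit pileup and local background (fragments) of the sites inside genes. Both classes of sites sit at nearly the same height within a library, the median fold runs from 7.38 to 14.7 across libraries, and the background medians stay between 1.81 and 2.00.

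The order of the sites by fold enrichment differed strongly between libraries. Across the 2923 sites Pearson's r of the fold between pairs of libraries ran from 0.156 to 0.281. For the summit pileup r ran from 0.506 to 0.690 over the 2906 sites whose pileup was recovered in all 4 lists, and for the local background from 0.179 to 0.237. These correlations are across sites, which share the library's depth and base composition, and are given as a description. When the 292 sites with the highest fold were taken from each library, 9 sites were among them in all 4 libraries, 74 in 3, 163 in 2 and 584 in 1. The site-by-site difference in log2 fold between G12V and MCF10A followed the difference in local background (r = -0.821) more closely than the difference in summit pileup (r = 0.441). The fold is computed from the pileup and the background, so the signs of these correlations are partly built in.

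For single sites, a pair of values for a cell type gives replicate 1 and then replicate 2. The strongest site by the sum of its ranks lay in intron 6 of MMRN2, the gene of an endothelial matrix protein, with a fold enrichment of 15.5 and 26.0 in the MCF10A libraries and 18.3 and 26.6 in the G12V libraries. The others of the first 10 were in RALYL, ARHGAP10, KCNK9, CHPF, ZFPM2, DOCK2, NDUFA4L2, GPSM1 and KCNJ10. ARHGAP10, a GTPase-activating protein, had fold values of 13.2 and 24.3 in MCF10A against 13.4 and 30.7 in G12V. These sites were high in all 4 libraries, and the ranges of the cell types overlapped at MMRN2 and at ARHGAP10. At DOCK2, an exchange factor for Rac known from leukocytes, the fold was 20.7 and 29.0 in MCF10A against 20.1 and 22.0 in G12V. The values at ZFPM2, a cofactor of GATA factors, spread more widely, with 16.7 and 28.6 in MCF10A against 11.2 and 35.0 in G12V.

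The sites of CHPF, an enzyme of chondroitin synthesis, and KCNJ10, an inward rectifier potassium channel, had no CTCF core within the 150 bp around the summit. The CHPF site lay in coding exon 2 (chr2:220406206-220406907) and reached a fold of 24.0 and 21.3 in MCF10A against 15.4 and 24.6 in G12V. The KCNJ10 site (chr1:159976050-159976577) reached 14.0 and 19.6 in MCF10A against 12.1 and 35.4 in G12V. A strong peak in every library was thus also found without a match to these 12 bases.

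Over the whole set, 2080 of the 2923 sites carried the core within 150 bp around the summit, 71.2% (95% exact binomial interval 69.5 to 72.8), and 800 carried it with no mismatch. In windows of the same length 2000 bp beside the sites the share was 1.33%. Genic sites with peaks in 1, 2 and 3 lists carried it in 37.0%, 50.8% and 61.6%, so the share went up with each further list. Against all 8545 genic sites of 1 to 3 lists, at 47.6%, the difference was 23.6 percentage points (two-sided Fisher's exact test on sites, adjusted p = 6.84e-110). Constitutive intergenic sites carried the core in 69.0%, and the difference of 2.21 points fell short of significance (two-sided Fisher's exact test, adjusted p = 0.0713). It passed when MCF10A replicate 1, G12V replicate 1 or G12V replicate 2 was left out, with 2.26, 2.20 and 2.67 points, was 0.68 points when only the 5′ end of each gene counted as a start site, and turned to -0.85 points for cores with no mismatch. The median GC content of the window was 56.3% at the sites described here and at the intergenic ones, and 50.3% at genic sites of 1 to 3 lists. Tests on sites treat each site as a unit and hold no error between cultures.

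**Figure D2:**
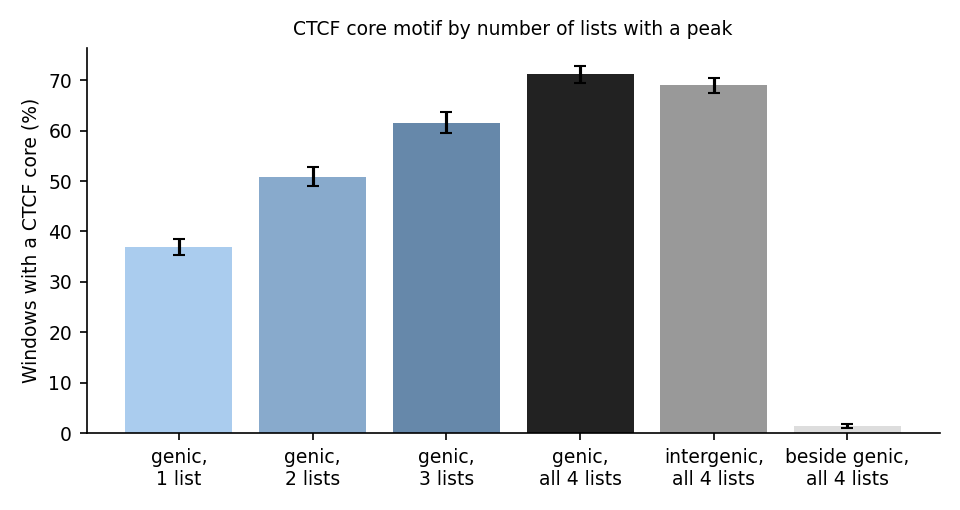
Share of 150 bp windows that hold the 12-base CTCF core with at most 1 mismatch (%, bars with 95% exact binomial intervals). Genic sites are split by the number of lists with a peak, beside constitutive intergenic sites and windows 2000 bp beside the genic sites of all 4 lists. The share goes from 37.0% with 1 list to 71.2% with all 4, and is 1.33% beside the sites.

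The core lay close to the summit, at a median distance of 19.5 bp, and the 4 summits of a site spanned a median of 48 bp. At 163 sites (5.58%) the span exceeded 100 bp. The sites used 258 different 12-base cores. The commonest was CCACCAGGGGGC with 103 sites (4.95%), followed by CCAGCAGAGGGC with 97 and CCAGCAGGGGGC with 82. The search allowed a choice of bases at the 4th, 5th, 8th and 9th positions of the core and fixed the others, apart from 1 mismatch. The shares within the core therefore follow largely from the search. The 2nd base was C in 99.8% of the matches and the 7th base G in 99.4%. The 4th and 5th bases were C in 60.2% and 55.6%, and the 8th and 9th G in 59.0% and 63.3%. Just downstream, outside the letters searched, the 13th base was G in 51.0% and A in 42.0%, and the 14th was C in 51.8%. This flank can be seen in the printed stretches, where the core is followed by "gc" or "ag" at most sites.

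A CpG within the core, the dinucleotide that can be methylated, was present in 190 of the 2080 matches (9.13%), against 10.8% of the 2512 matches at intergenic sites. The difference of -1.69 points fell short of significance (two-sided Fisher's exact test, adjusted p = 0.0713), while without MCF10A replicate 1, G12V replicate 1 or G12V replicate 2 it was -1.80, -1.74 and -2.01 points and passed. The core as searched holds no CpG, so each of these CpG comes with the allowed mismatch, as in the printed stretches of MMRN2, GPSM1 and SLC35F2. A CpG across the edge of the core, from its 12th to the 13th base, was not counted. The 12th base was C in 88.7% of the matches and the 13th G in 51.0%. The 9.13% is therefore not the share of motifs with a CpG in the core or its flank.

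Sites with and without the core differed little in strength. The 800 sites with an unchanged core had median folds of 7.46 and 11.4 in MCF10A against 7.62 and 15.6 in G12V, and the 843 sites without a core 7.24 and 10.5 in MCF10A against 7.62 and 13.8 in G12V. The pileup medians were 19.4, 35.2, 21.9 and 46.8 with an unchanged core and 18.8, 31.4, 20.9 and 43.1 without a core, in the order of the libraries used above. The pileup median was thus higher with an unchanged core in each library, and the fold median in 3 of the 4.

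The direction of the motif relative to the gene was asked next, since the motif strand was not used to choose the sites. Of 2029 sites with a core and hosts on a single strand, 951 had the core on the coding strand of the gene, 46.9% (44.7 to 49.1), below 50% (two-sided exact binomial test, adjusted p = 0.00900). The share was 45.3% among 1754 sites in introns and 53.9% among 232 in exons. With respect to the chromosome, 50.6% of the cores were on the plus strand. The shortfall was also seen in genic sites of 1 to 3 lists, with 47.6% of 3965, which were not tested. With a −log10 q of at least 5 in every list, which kept 2478 sites, the share was 47.7% and no longer passed (exact binomial test, adjusted p = 0.101). In lists of equal length it was 48.8% (exact binomial test, adjusted p = 0.615).

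Split at the midpoint of the gene, the share on the coding strand was 51.0% (47.2 to 54.7) of 710 sites towards the start and 42.7% (39.9 to 45.5) of 1216 sites towards the end. This split was made after the values were seen and was not tested. In genic sites of 1 to 3 lists the same shares were 49.4% and 45.7%. In the printed set, the core of DOCK2 lies against the direction of its gene and the core of ANK2 lies along it.

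No preferred arrangement of neighbouring cores within a gene was detectable. Of 345 neighbouring pairs with a core at both sites, 81 (23.5%, 19.1 to 28.3) faced each other, 96 (27.8%, 23.2 to 32.9) faced apart and 168 (48.7%, 43.3 to 54.1) pointed the same way. Each interval holds the share that independent strands would give, which is 25% for either opposed arrangement and 50% for the same direction. The median distance was 51315 bp between cores that faced each other, 19806 bp between those that faced apart and 23948 bp between those of the same direction.

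Most sites were intronic. The summit of the strongest peak lay in an intron at 2538 sites (86.8%), in a coding exon at 121 (4.14%) and in an untranslated exon at 211 (7.22%), while at 53 (1.81%) the site reached into a gene whose body did not hold the summit. Taken over both kinds, 332 sites (11.4%) were exonic, where 5.28% of the gene body bases outside promoters are exonic. Genic sites of 1 to 3 lists were exonic in 8.99%, a difference of 2.37 percentage points (two-sided Fisher's exact test, adjusted p = 0.000547). Exonic sites carried the core in 74.4% and intronic ones in 70.5%. The densities in and outside genes were alike, with 2.41 sites per Mb of gene body and 2.39 constitutive intergenic sites per Mb of intergenic sequence.

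Among the exonic sites, ANK2, a membrane-skeleton adaptor, carried a site in exon 17 (chr4:114199434-114199920), 11673 bp from the nearest start site. Its fold was 12.1 and 23.3 in MCF10A against 11.2 and 29.5 in G12V. Other exonic sites named by rank were CHPF, ST18 and CCM2L, and the site in the last exon of CCM2L reached 14.4 and 17.7 in MCF10A against 13.4 and 25.3 in G12V with no core. At each of these sites the ranges of the cell types overlapped. Exonic sites as a class had median folds of 7.66 and 11.3 in MCF10A against 7.89 and 14.3 in G12V. Intronic sites had 7.29 and 10.9 in MCF10A against 7.43 and 14.7 in G12V. The exonic median was thus slightly higher in every library but G12V replicate 2, which was not tested.

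Along the gene, the sites were more frequent towards the end. In 2711 sites with 1 host gene that held the summit, the 5 bins of 20% of the gene length from start to end held 13.7%, 15.3%, 18.0%, 22.1% and 30.8% of the sites. The bases of these genes outside promoters fell into the same bins with 18.9%, 20.4%, 20.3%, 20.1% and 20.3%. The median summit was at 63.5% of the gene length. Genic sites of 1 to 3 lists ran from 17.8% in the first bin to 22.8% in the last, so the slope was shallower there. The first intron of the canonical transcript held 355 of 2056 intronic sites (17.3%) and the last intron 228 (11.1%). Over all coding genes, first introns made up 20.2% of the gene body bases outside promoters, exons included. No such share was computed for last introns. The bins were examined as a description, without a test.

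**Figure D3:**
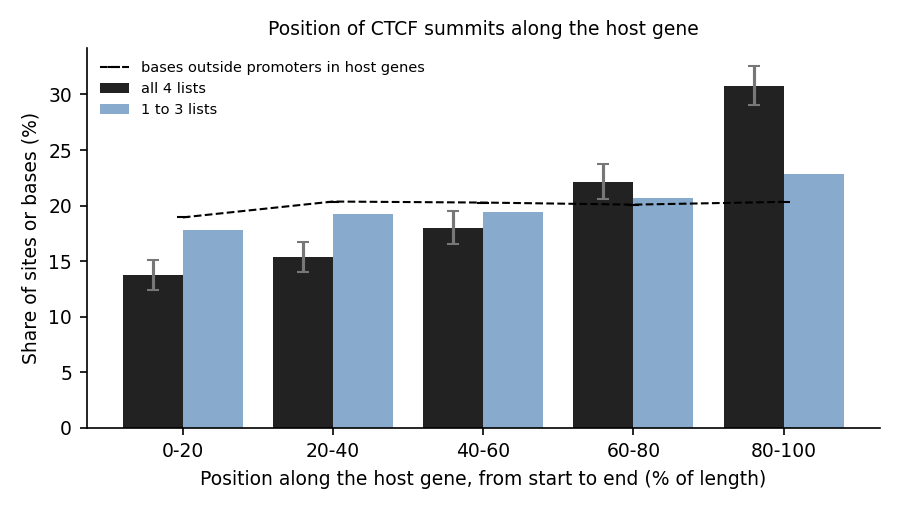
Position of the summits along the host gene, in 5 bins from start to end (% of gene length), as the share of sites (%). Dark bars are the 2711 constitutive sites inside a single gene with 95% exact binomial intervals, light bars genic sites of 1 to 3 lists, and the dashed line the share of host gene bases outside promoters. The dark bars go from 13.7% in the first bin to 30.8% in the last, while the line stays between 18.9% and 20.4%.

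The nearest start site of a protein-coding gene was at a median of 7559 bp (quartiles 3057.5 and 20884.5 bp), against 25950 bp for constitutive intergenic sites. Only starts of protein-coding genes had been removed by the rule, so starts of noncoding genes could still be met. A promoter interval of a noncoding gene, here any gene not typed as protein-coding, overlapped 105 sites (3.59%), 67 of them of lncRNA genes. At intergenic sites the number was 306 (8.40%), 13 of them at immunoglobulin and 5 at T-cell receptor V genes. The genic share minus the intergenic share was -4.81 percentage points (two-sided Fisher's exact test, adjusted p = 9.32e-16). The annotation itself defines the classes, and the share of their bases in such intervals was not computed. The part of the annotation in this difference was not tested.

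The 2923 sites lay in 2465 host genes, 12.2% of the 20176 annotated protein-coding genes. 1984 hosts had 1 site, 354 had 2, 99 had 3 and 28 had 4 or more. Hosts were long genes, with a median length of 79913 bp against 27194 bp for all coding genes. 159 sites lay in more than 1 gene, and the site with most hosts (chr5:140891857-140892466) lay within the 22 overlapping units of the protocadherin gamma cluster, cell-adhesion genes with alternative first exons that share their last exons.

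The host with most sites was GSE1 on chromosome 16, with 10 sites in its 506680 bp. Of these, 5 carried a core, and all 5 cores were on the plus strand, that of the gene. SLC25A48, SYN3 and KSR2 had 6 sites each and VWF had 5. In SYN3, a synapsin of nerve terminals, 2 cores were on the plus strand and 3 on the minus strand. In KSR2, a scaffold of the RAS-MAPK cascade, 1 core was on the plus strand and 3 on the minus strand, that of the gene. VWF, von Willebrand factor of endothelium and platelets, had 2 cores on each strand within 175894 bp, the highest density of these hosts at 2.84 sites per 100 kb. The median fold over the KSR2 sites was 7.37 and 11.2 in MCF10A against 7.64 and 10.5 in G12V, and over the VWF sites 6.38 and 14.1 in MCF10A against 6.96 and 15.5 in G12V.

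In all, 6 gene lists of pathways relevant to these cells were searched for hosts, as a count without a test, beside the 12.2% of all coding genes. The lists were chosen with results of these data known, and their genes differ in length. Among 30 genes for CTCF, cohesin and loop regulators (median length 48276.5 bp), 4 (13.3%) hosted 6 sites, namely TOP2B, LMNA with 3 sites, PDS5A and ZNF143. LMNA, which encodes the A-type lamins, had its strongest site in intron 1 with a fold of 10.1 and 16.3 in MCF10A against 7.55 and 15.3 in G12V. The site in intron 1 of PDS5A, a cohesin regulator, had 7.54 and 19.4 in MCF10A against 11.9 and 9.62 in G12V. In both the cell types overlapped.

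Of 70 genes of RAS-MAPK and EGF receptor signalling (median length 86333.5 bp), 11 (15.7%) hosted 22 sites, 19 with a core. KSR2 held 6 and RALGDS, a RAS effector, held 3. At its strongest site, which the annotation also places in the gene ENSG00000285245, RALGDS showed a fold of 11.1 and 11.8 in MCF10A against 10.9 and 19.3 in G12V. The site in intron 20 of ERBB4, a receptor of the EGF receptor family, showed 11.1 and 15.4 in MCF10A against 8.43 and 26.7 in G12V. RASAL2, a RAS GTPase-activating protein, showed 8.11 and 12.4 in MCF10A against 7.29 and 24.9 in G12V. The values of the cell types overlapped at all of these.

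The 66 genes of epithelial adhesion, basement membrane and keratins (median length 51800 bp) had 14 hosts (21.2%) with 1 site each. Among them were CDH1, ITGB4, LAMA3 and LAMB3, which encode E-cadherin, the beta-4 integrin and laminin chains. In intron 60 of LAMA3 the fold was 6.55 and 13.6 in MCF10A against 6.82 and 25.5 in G12V. In intron 2 of PARD3, a polarity protein, it was 14.6 and 9.05 in MCF10A against 6.36 and 20.3 in G12V. Neither site separated the cell types.

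The 44 genes of EMT and TGF-beta signalling (median length 76808.5 bp) had 11 hosts (25%) with 14 sites, 12 of them with a core. These included TCF4, SMAD6 and ACVR1B. SMAD6, an inhibitory SMAD, showed a fold of 12.1 and 17.9 in MCF10A against 9.09 and 18.7 in G12V. At the stronger of its 2 sites, the receptor ACVR1B showed 9.14 and 13.8 in MCF10A against 8.14 and 19.8 in G12V, again with overlap.

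Among 60 chromatin regulators (median length 104380 bp) 12 (20.0%) hosted 16 sites. KDM2B, a histone demethylase, held 3 of them. Its strongest site, in intron 11, had 7.86 and 17.2 in MCF10A against 24.3 and 24.1 in G12V, and did not overlap between the cell types. The log2 difference at this site was 0.83 ± 0.41 (SE) and did not pass the test described below (limma, adjusted p = 0.931). Another KDM2B site, in an untranslated exon, had 9.44 and 14.913 in MCF10A against 14.87 and 19.07 in G12V, with overlap.

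Of 42 genes of the p53 pathway (median length 35914 bp) 6 (14.3%) hosted 7 sites, in TP73, CDKN1A, BCL2, POLH, GDF15 and FDXR. CDKN1A, the cell-cycle inhibitor p21, had its site in intron 1 (chr6:36648207-36648640), 1890 bp from the nearest start site and without a core. The fold there was 8.68 and 11.4 in MCF10A against 9.94 and 17.5 in G12V. In coding exon 2 of GDF15, a secreted stress cytokine, it was 9.91 and 9.53 in MCF10A against 6.88 and 19.1 in G12V.

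The p53 lists were not used by the rule, so overlap with p53 peaks could be compared. A p53 peak overlapped 1, 1, 1 and 10 of the 2923 sites in MCF10A replicates 1 and 2 and G12V replicates 1 and 2, whose lists held 1718, 885, 477 and 2619 peaks. The shortest of these lists, G12V replicate 1, has the word "old" in its peak names. In all, 10 sites (0.342%, 0.164 to 0.628) had a p53 peak in any list, against 17 (0.467%) of the intergenic sites. The difference of -0.12 percentage points was not detectable at this number of sites (two-sided Fisher's exact test, adjusted p = 0.561).

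The site with a p53 peak in all 4 lists lay in intron 1 of NTPCR, a nucleotide triphosphatase (chr1:233088631-233089070). Its p53 fold was 5.18 and 5.42 in MCF10A against 5.03 and 24.5 in G12V, highest in G12V replicate 2. Its CTCF fold was 5.70 and 7.46 in MCF10A against 4.31 and 4.88 in G12V, below the median of the set in every library. The local background of the CTCF peak was 3.04 and 5.0 in MCF10A against 5.0 and 9.0 in G12V, above the medians of the set, and no CTCF core was found. The other 9 sites had a p53 peak in G12V replicate 2 alone, the longest p53 list. They included LCT, the lactase gene, INTS7, a subunit of the Integrator complex, SLC30A1, a zinc exporter, and IP6K3, an inositol phosphate kinase. At INTS7 the CTCF fold was 11.7 and 10.3 in MCF10A against 10.7 and 27.9 in G12V, and the p53 fold 5.19. All 4 of these carried a CTCF core, printed above. The p53 summit lay 269, 87, -486 and 156 bp from the CTCF summit at LCT, INTS7, SLC30A1 and IP6K3, so at SLC30A1 it was outside the CTCF site. At NTPCR the distances were -79 to -39 bp.

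The last question was whether CTCF occupancy at these sites differed between G12V and MCF10A. The log2 fold enrichment of all 8006 sites with a peak in all 4 lists was quantile-normalized and compared with limma. No site passed an adjusted p below 0.05, which is 0 of the 2923 sites, beside 0% of all 8006, and the smallest adjusted p was 0.718. At an unadjusted p below 0.05, 167 of the 2923 sites differed (94 higher in G12V), beside 5.23% of all sites tested, or 2.54% that were higher in G12V. The median log2 difference over the 2923 sites was 0.01. Quantile normalization gives the 4 libraries the same distribution over the 8006 sites, so a median near 0 largely follows from it. A shift in strength shared by most sites could not be seen in this comparison. With 2 libraries per cell type, in which the replicates differ in strength as given above, no site could be called different in fold enrichment, and this does not show that the sites were bound alike.

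Among the sites with the smallest p, in an intron of SLC35F2, a solute carrier, the fold was 6.81 and 6.43 in MCF10A against 15.9 and 29.5 in G12V. Both G12V values exceeded both MCF10A values, and the log2 difference was 1.48 ± 0.43 (SE, limma adjusted p = 0.718). PLEKHA7, a protein of adherens junctions, had 6.60 and 5.08 in MCF10A against 13.1 and 26.3 in G12V, with a log2 difference of 1.43 ± 0.45 (limma adjusted p = 0.718). SGSM1, ARID4B and HS1BP3 were the others named in this direction, with log2 differences of 1.51, 1.29 and 1.41. ARID4B belongs to a histone deacetylase complex.

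In the other direction, RAB11A, a GTPase of recycling endosomes, had a fold of 12.1 and 15.8 in MCF10A against 4.23 and 6.17 in G12V. All MCF10A values exceeded the G12V values there, and the log2 difference was -1.61 ± 0.48 (limma adjusted p = 0.718). In coding exon 5 of PTPRC, which encodes the leukocyte phosphatase CD45, the fold was 12.3 and 18.3 in MCF10A against 3.69 and 13.3 in G12V, so the cell types overlapped. COL4A4, a basement membrane collagen, had 11.4 and 15.2 in MCF10A against 4.37 and 7.66 in G12V. SNTG1 and AFF3 had log2 differences of -1.33 and -1.29.

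Averaged over the replicates, the local background moved against the fold at each of these 10 sites. The fold is divided by this background, so at sites picked by their fold difference such a movement is partly built in. In SLC35F2 it was 2.0 and 3.0 fragments in MCF10A and 1.1 and 1.0 in G12V, and in PLEKHA7 it was 2.0 and 8.0 in MCF10A against 1.1 and 1.1 in G12V. In RAB11A the background was 0.85 and 1.6 in MCF10A against 3.0 and 6.0 in G12V, while the pileup was 21.4 and 39.9 in MCF10A against 15.9 and 42.2 in G12V. The pileup of RAB11A overlapped between the cell types and its background did not. The part of the background in these differences was not tested further.

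**Figure D4:**
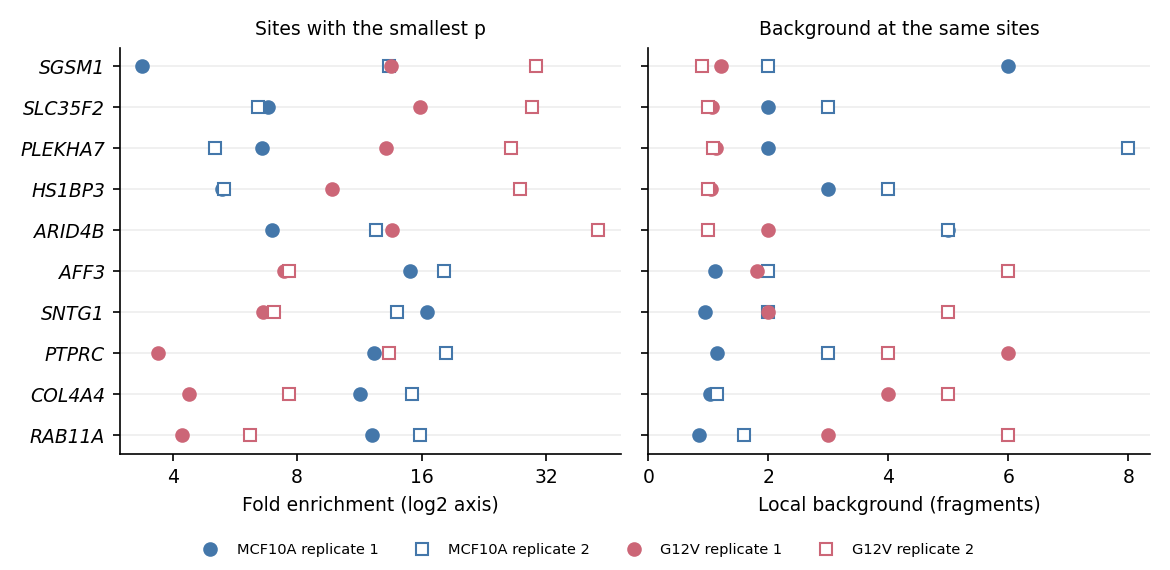
The 10 sites inside genes with the smallest p for a difference between G12V and MCF10A, 5 in each direction, named by host gene. The left panel gives the fold enrichment (log2 axis) and the right panel the local background (fragments) in each of the 4 CTCF libraries, filled and open symbols for the libraries as in the legend. Sites with a higher fold in G12V have a lower mean background there, and the reverse holds for sites with a higher fold in MCF10A, with no adjusted p below 0.718. The fold is divided by the background, so this opposition is partly built in.

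With the recovered summit pileup in place of the fold, 9 of 2906 sites passed an adjusted p below 0.05, all of them higher in G12V, beside 0.327% of the 7962 sites tested and 0.276% that were called higher in G12V. The 9 host genes were CD40, TIMP2, RET, ITGB4, TNRC6C, CCL1, RPL38, MFAP3 and CA10. In CD40, a receptor of the TNF receptor family, the pileup was 9.72 and 13.3 fragments in MCF10A and 26.8 and 49.7 in G12V, a log2 difference of 1.43 ± 0.28 (SE, limma adjusted p = 0.00710). In RET, a receptor tyrosine kinase, it was 7.13 and 10.5 in MCF10A against 22.9 and 39.3 in G12V, a log2 difference of 1.55 ± 0.33 (limma adjusted p = 0.0120). In both genes the cell types did not overlap in pileup. No site passed when any single CTCF library was left out (0 calls in each of the 4 fits, where 2.55% to 6.26% of these sites had an unadjusted p below 0.05, beside 2.98% to 6.81% of all 7962), so that the 9 calls need all 4 libraries.

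Of the 9 sites, 6 lay on chromosome 17, which held 171 of the 2906 sites fitted. Beyond 45 Mb lay 5 of these 6, among them TIMP2, an inhibitor of metalloproteinases. Its pileup was 14.3 and 23.8 in MCF10A against 36.8 and 69.3 in G12V. Over the 78 sites fitted in that stretch, 70 (89.7%) had a higher normalized pileup in G12V, beside 50.3% of all 2906 sites. The median log2 difference over the 78 sites was 0.41 in pileup, whereas it was -0.02 in fold. Relative to the median of all 2923 sites, the median pileup there was 0.933 and 1.03 in MCF10A against 1.33 and 1.29 in G12V, and the median background 0.700 and 1.00 in MCF10A against 1.11 and 1.5 in G12V. Pileup and background were thus both higher in G12V along this stretch. The number of DNA copies per cell was not measured, and its part in these pileup values, those of the 5 called sites included, was not tested. Constitutive intergenic sites of the same stretch had pileup ratios of 1.00 and 0.914 in MCF10A against 1.38 and 1.29 in G12V. The boundary was chosen after the values were seen, and the 93 sites before 45 Mb had pileup ratios between 0.958 and 1.00.

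**Figure D5:**
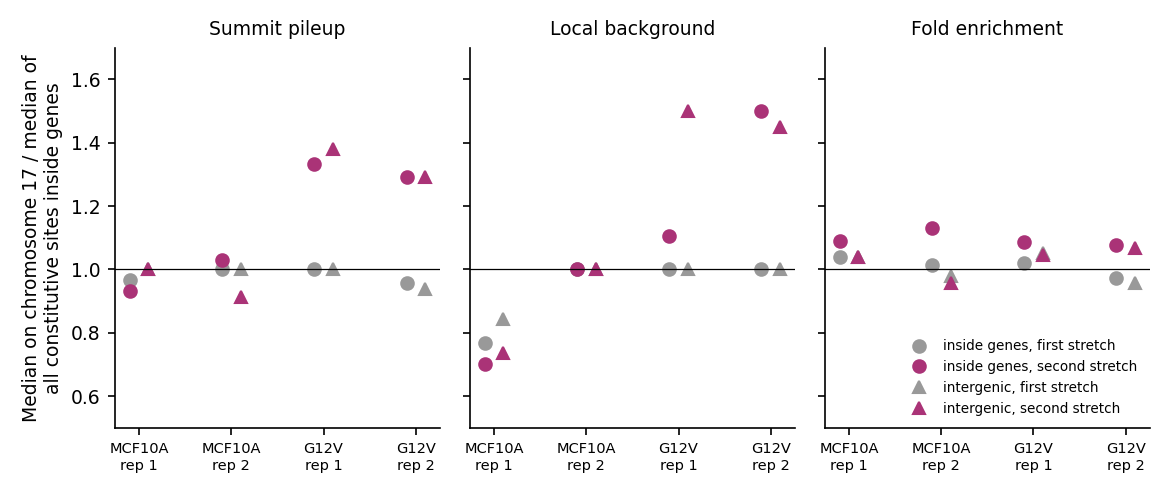
Medians on chromosome 17 relative to the median of all constitutive sites inside genes (ratio, 1 is equal), in each of the 4 CTCF libraries, for summit pileup, local background and fold enrichment. Symbols give sites inside genes and intergenic sites before and beyond 45 Mb. Beyond 45 Mb the pileup ratios of sites inside genes are 0.933 and 1.03 in MCF10A against 1.33 and 1.29 in G12V, while the fold ratios are between 1.08 and 1.13.

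The rule has limits at its edges. The weakest peak that still made a member lay in PNPLA3 with a −log10 q of 1.33 in G12V replicate 1, where the fold was 2.98 against 8.21 and 7.83 in MCF10A against 15.8 in G12V replicate 2. Just outside, the strongest site of 3 lists lay in RASSF4 and DEPP1, with folds of 12.9, 13.9 and 21.8 and no peak in MCF10A replicate 1. The site nearest to a promoter interval, in MBTPS1, was 3 bp from it, and a site in TSPAN18 and TP53I11 was left out for an overlap of 1 bp. In all, 43 of the 2923 sites lay within 100 bp of a promoter interval.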

How the data were processed

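ChIP-seq for CTCF and p53 was analysed from 8 peak lists (2 replicates for each factor in MCF10A and G12V). The 8 inputs served as controls in peak calling alone. The authors aligned reads to hg19 with Bowtie, kept unique alignments and ran MACS2 with its defaults on each library and its input. Versions used for the ChIP-seq libraries are not given in the sources used here. Each deposited list, called on 1 library, gives per peak a score, the −log10 q times 10 without its decimals. It also gives the fold enrichment (a ratio), the −log10 p and the −log10 q at the summit as deposited by the authors. The q-value threshold was 5%, so absence from a list means no detection, and does not show that CTCF was unbound. The deposited lists hold no read counts. Summit pileup, local background and calling depth were solved from the fold and the −log10 p, for at least 99.6% of the peaks of each CTCF list.

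Genes came from GENCODE release 44 mapped to GRCh37, with start sites of every transcript of a protein-coding gene, and sequence from GRCh37. The 12-base CTCF core was searched on both strands, with at most 1 mismatch, in 150 bp centred on the summit of a site's strongest peak. For shares, two-sided Fisher's exact tests were used, or an exact binomial test for orientation, adjusted by Benjamini-Hochberg over 7 tests. Intervals are exact 95% binomial intervals and cover counting error only. Fold and pileup were compared with limma 3.58.1 in R 4.3.3 on quantile-normalized log2 values of all sites with a peak in all 4 lists. The methods call the replicates biological without saying whether they were separate cultures, and p-values measure the spread between these samples. Other steps used Python 3.11.15 with scipy 1.17.1, and the scripts were tested on simulated data.

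The sites, the gene lists and the tests were chosen with earlier results of these data known. Sites were named by rule as the 10 with the smallest rank sum, the 5 hosts with most sites, the 5 with the smallest p in each direction, up to 4 hosts per gene list, the 5 strongest exonic sites, those with p53 peaks and those at the limits of the rule. The 9 sites called in pileup and the chromosome 17 stretch were named after their values were seen. Sequences were printed for sites with a core among the 10 strongest, those with the smallest p, the 5 exonic sites and up to 5 sites with p53 peaks, leaving out chromosome 8. Some genes and 1 gene list are not reported here. Alternatives covered list length, promoter size, motif window and mismatches, summit span, a stricter q, normalization, and leaving out each library.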

Additional observations from a re-analysis of the deposited data

How the results depend on the processing

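The excess of the core over genic sites of 1 to 3 lists, the exonic excess, the shortfall of noncoding starts and the missing difference in p53 overlap kept their direction and their side of the threshold under every alternative run, with ranges of 13.2 to 24.2, 2.01 to 3.22, -6.17 to -4.30 and -0.21 to -0.06 percentage points. The number of sites ran from 1596 in lists cut to equal length to 3964, was 1763 with promoters of 5000 bp on either side, and stayed between 2940 and 3964 when 1 library was left out. The difference in the core from intergenic sites ran from 2.12 to 2.67 points when 1 library was left out, was 2.70 (adjusted p = 0.0299, Fisher's exact test) with summits within 100 bp and 2.50 (adjusted p = 0.0343) in 300 bp windows, fell to 0.68 (adjusted p = 0.541) with gene 5′ ends as start sites and 1.64 (adjusted p = 0.273) with promoters of 5000 bp, and reversed to -0.85 (adjusted p = 0.636) with no mismatch allowed. The difference in CpG ran from -2.01 to -1.65 points when 1 library was left out, was -1.93 (adjusted p = 0.0437) with summits within 100 bp and -0.70 (adjusted p = 0.505) with gene 5′ ends as start sites, and reversed to 0.24 (adjusted p = 0.851) in lists of equal length. With no mismatch allowed it has no value, since the core as searched holds no CpG. The share of cores on the coding strand lost its call at 47.7% with a −log10 q of at least 5, at 48.8% in lists of equal length and at 46.8% with no mismatch, and kept it when 1 library was left out. The median log2 fold difference from intergenic sites reversed to 0.022 in lists of equal length (exact permutation test, p = 0.12, the smallest that 4 libraries can give). The cause of these changes was not tested.

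No site was called in fold by limma in any fit but that on summit pileup, with 9 sites, and these calls were 0 when any single library was left out. The lone library of a cell type was then assumed to vary like the other cell type. In normalized log2 fold, the deviations of same-numbered libraries were hardly correlated (r = 0.03). In other values the libraries were alike by number. The median peak width was 251 bp (MCF10A) and 264 bp (G12V) in replicate 1, and 340 and 359 bp in replicate 2. The highest correlation in pileup was between the replicates 2 of the cell types (r = 0.690). That between the replicates 1 was lower than within either cell type (r = 0.545). Whether same-numbered libraries shared a batch was not tested. No call in fold was made with the replicate block (0). With it, 455 of the 8006 sites had an unadjusted p below 0.05, against 419 without it. The block raised the calls in pileup from 9 to 28, or 0.964% of these sites beside 0.992% of all 7962. The alternatives on the pileup fit, and that on start sites of coding transcripts only, were added after seeing the data.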
